A study of Homo sapiens with 8 samples.

Results

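The 4 arrays compared here were of 2 human liver cancer lines kept with DMSO, the solvent control, for 48 h: 2 arrays of Huh7.5.1 cells and 2 of Hep3B cells (Hep3b in the labels), of 8 arrays in the whole series. All 44988 probe sets that the platform annotation pairs with 1 gene symbol were taken, and 11242 of the 18132 genes they stand for were tested. The series was made to find transcripts altered by the compound CU27 in these lines, and the DMSO cultures were its controls, so the lines are set against each other here at baseline. Huh7.5.1 replicates carry the numbers 1 and 2 and Hep3B replicates the numbers 2 and 3, which the labels call biological replicates. The labels give DMEM or MEM with serum as the medium and do not say which line had which, so line and medium cannot be told apart.

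Both lines are established models of hepatocellular carcinoma, the main cancer of the hepatocyte. Hepatocytes make most plasma proteins, lipoproteins, clotting factors and bile acids under the control of liver-enriched transcription factors, and liver cancers keep part of this programme while they bring back genes of fetal liver. Huh7.5.1 descends from Huh7 cells chosen for letting hepatitis C virus replicate, and Hep3B carries integrated hepatitis B virus. Each line came from 1 person, so a difference between them describes these 2 lines and not a class of tumours.

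Expression is given as a log2 value relative to the median of the same array, so 0 is the array's median, each unit is a doubling, and 0 also served as the floor below which a level counts only as a bound. A gene was called when its limma adjusted p was at most 0.05 and its group means, raised to the floor, differed at least 2-fold. Differences of single genes are given after the same raising, so they are lower bounds in size where a line lay below the floor. Values called fitted, those in brackets for a changed setting or a left-out array, and those along chromosomes are without raising. The deposited columns of the lines had different medians, and the Huh7.5.1 median lay 0.42 log2 units above that of Hep3B, which the centring removed. Pearson correlations over probe sets were 0.994 between the Hep3B arrays and 0.993 between the Huh7.5.1 arrays, and 0.910 to 0.918 across lines. The Hep3B pair held 1086 probe sets with exactly equal values, against 0 in the 14 other pairs of arrays. Of the tested genes 120 were among these, and 27 of them were called. Control probe sets for the 3′ and 5′ ends of ACTB differed by 2.28 and 1.60 in Hep3B and by 0.94 and 1.06 in Huh7.5.1, and those of the dap spike-in by 2.36 and 2.41 against 1.65 and 1.80. This difference in 3′ signal moved with the line in every comparison below, and its part in them was not tested.

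The label of a liver line was checked against 2 hepatocyte genes, ALB and FOXA2, and not every hepatocyte gene was expressed. For bile acids, drug metabolism and transport, 25 of 64 measured members were below the floor in both lines. For the urea cycle and amino acid breakdown it was 10 of 44, and for plasma carriers and acute phase genes 8 of 37. CYP3A4, CYP7A1, OTC, TAT and CRP were among them. ALB, the gene of serum albumin, lay at 8.26 and 8.44 in Hep3B and at 8.12 and 8.21 in Huh7.5.1, far above the array median in both lines. FOXA2, a pioneer factor of liver, lay at 2.28 and 2.23 in Hep3B and at 2.31 and 2.46 in Huh7.5.1, and the 2 lines did not differ past the threshold (limma adjusted p = 0.56). Of the measured markers of other cell types, 12 of 14 for endothelium, 14 of 17 for leukocytes, 9 of 15 for stellate cells and fibroblasts and 5 of 14 for cholangiocytes were below the floor in both lines. On each array 7 or 8 of the 14 cholangiocyte markers lay above the array median. PTPRC, which marks leukocytes, lay between -3.09 and -2.72 on the 4 arrays, and CDH5, which marks endothelium, between -1.71 and -1.26.

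The lines differed widely. In bulk RNA, fewer expressing cells and less RNA per cell cannot be told apart. At an adjusted p of 0.05 or below alone, 64.4% of tested genes differed, 2581 higher in Huh7.5.1 and 4658 higher in Hep3B. With the 2-fold requirement, 990 genes were called higher in Huh7.5.1, which is 8.81% of the tested genes, and 1790 higher in Hep3B, which is 15.9%. The 2 arrays of one line lay above both arrays of the other for 84.5% of tested genes. At least 4-fold differences numbered 247 and 306, and at least 16-fold differences 32 and 19, in the order Huh7.5.1 and Hep3B. The other line was below the floor for 272 and 276 of the called genes. Such genes passed the filter only through the line where they were higher. Counts of gene lists below are to be read with this limit and against the shares of 8.81% and 15.9%.

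How the arrays are scaled to each other decides the balance between the directions. Huh7.5.1 took 35.6% of the calls after median centring, with 1757 genes higher in Huh7.5.1 and 875 higher in Hep3B, a share of 66.8%, on the values as deposited. Quantile normalization gave 45.8% and centring on the 75th percentile 44.8%. The median difference of all tested genes was -0.23 after median centring and 0.22 as deposited. Under all 5 scalings 1853 genes were called, 981 higher in Huh7.5.1 and 872 higher in Hep3B, and 0 called genes changed direction. The values as deposited move fitted differences by 0.42 toward Huh7.5.1, which is less than the 2-fold limit. A reversal was therefore hardly possible, and the calls kept toward Huh7.5.1 are no independent support for them.

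**Figure D1:**
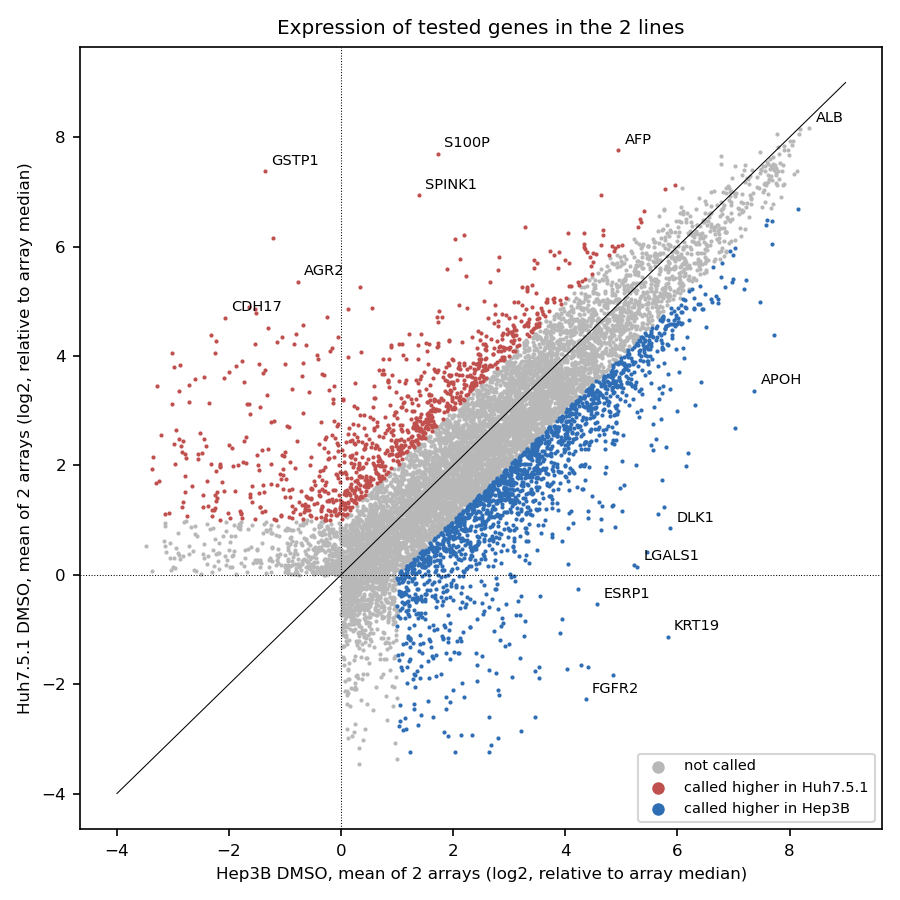
Mean log2 value of each tested gene in Hep3B (horizontal) and Huh7.5.1 (vertical), 2 arrays each, relative to the array median. The solid line marks equal levels, the dotted lines the floor, and coloured points are called genes: 8.81% of the tested genes higher in Huh7.5.1 (red) and 15.9% higher in Hep3B (blue).

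GSTP1 differed most. This gene of a glutathione S-transferase, an enzyme that joins glutathione to reactive compounds, lay at -1.34 and -1.37 in Hep3B and at 7.36 and 7.41 in Huh7.5.1. It was below the floor in both Hep3B arrays and far above it in both Huh7.5.1 arrays, at least 167-fold higher (limma adjusted p = 4.26e-10). COL2A1, the cartilage collagen, stood at -1.06 and -1.38 in Hep3B and at 5.96 and 6.37 in Huh7.5.1, at least 71.8-fold higher. S100P, a calcium-binding protein of secretory epithelium, was measured above the floor in both lines, at 1.83 and 1.62 against 7.69 and 7.71, a difference of 5.97 ± 0.11 (SE, n = 2 arrays per line) or 62.9-fold. SPINK1, a secreted trypsin inhibitor, differed 46.8-fold, from 1.45 and 1.33 to 7.06 and 6.83. The largest differences were chosen among genes whose lines do not overlap, so that separation is no further result.

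The other members of the 15 largest differences toward Huh7.5.1 were AGR2, TSPAN8, PTGR1, GOLM1, ANXA1, KITLG, GTSF1, CDH17, FKBP11, GAL and KLF5. AGR2, a protein disulfide isomerase of mucus-secreting cells, was at least 41.1-fold higher, and CDH17, the cadherin of liver and intestine, at least 26-fold. KITLG, the ligand of the KIT receptor, lay at 0.50 and -0.25 in Hep3B and at 4.74 and 4.96 in Huh7.5.1, 26.5-fold higher. KLF5, a transcription factor of gut epithelium, was at least 21.2-fold higher.

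In the other direction KRT19, a keratin of bile duct cells and hepatic progenitors, led. It lay at 5.68 and 5.97 in Hep3B and at -1.32 and -0.95 in Huh7.5.1, at least 56.7-fold higher in Hep3B (limma adjusted p = 1.31e-08). LGALS1, the gene of galectin-1, lay at 5.09 and 5.47 in Hep3B and at 0.18 and 0.12 in Huh7.5.1, a 35.1-fold difference. HAL, which starts histidine breakdown, stood at 5.23 and 5.22 against 0.04 and 0.31, and MAGED1, a MAGE family member, at 5.46 and 5.47 against 0.46 and 0.36, each a 33.2-fold difference. Both genes lay near the floor in Huh7.5.1 and well above it in Hep3B.

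DLK1, an imprinted gene of fetal liver, lay at 6.38 and 5.35 in Hep3B and at 0.60 and 1.11 in Huh7.5.1, 32.2-fold apart. ANGPTL8, which restrains lipoprotein lipase, was at least 28.9-fold higher in Hep3B, ESRP1, a splicing regulator of epithelial cells, at least 23.7-fold, and FGFR2, a fibroblast growth factor receptor, at least 20.6-fold. AGTR1, the angiotensin II receptor, lay at 6.10 and 6.19 in Hep3B and at 1.69 and 2.28 in Huh7.5.1, a 17.9-fold difference. S100A14, TMSB4X, PTGDS, TM4SF4, CHODL and PAQR8 complete the 15 largest differences toward Hep3B. S100A14 was the least even among replicates, with Huh7.5.1 arrays at 0.22 and 2.01, and both still lay below the Hep3B arrays at 5.58 and 5.71.

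**Figure D2:**
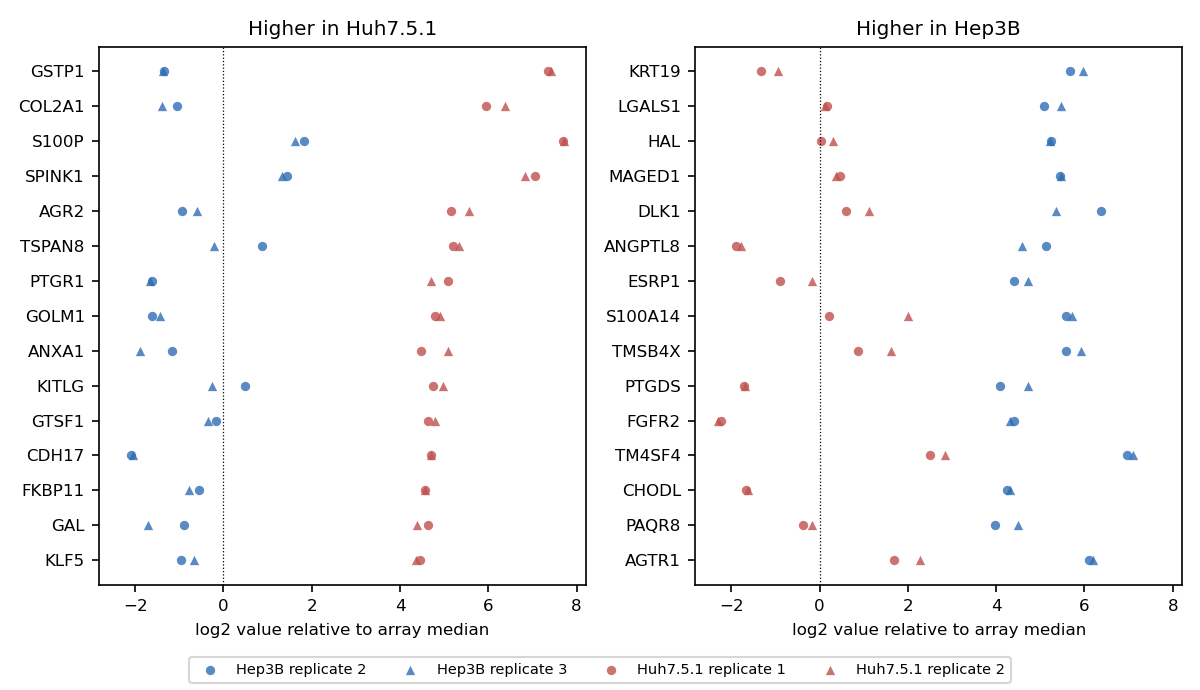
Log2 value relative to the array median in each of the 4 arrays for the 15 largest called differences in each direction, Hep3B in blue and Huh7.5.1 in red. The genes were chosen among those whose lines do not overlap, and they run from GSTP1 at 7.36 and 7.41 in Huh7.5.1 to KRT19 at 5.68 and 5.97 in Hep3B.

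**Figure D3:**
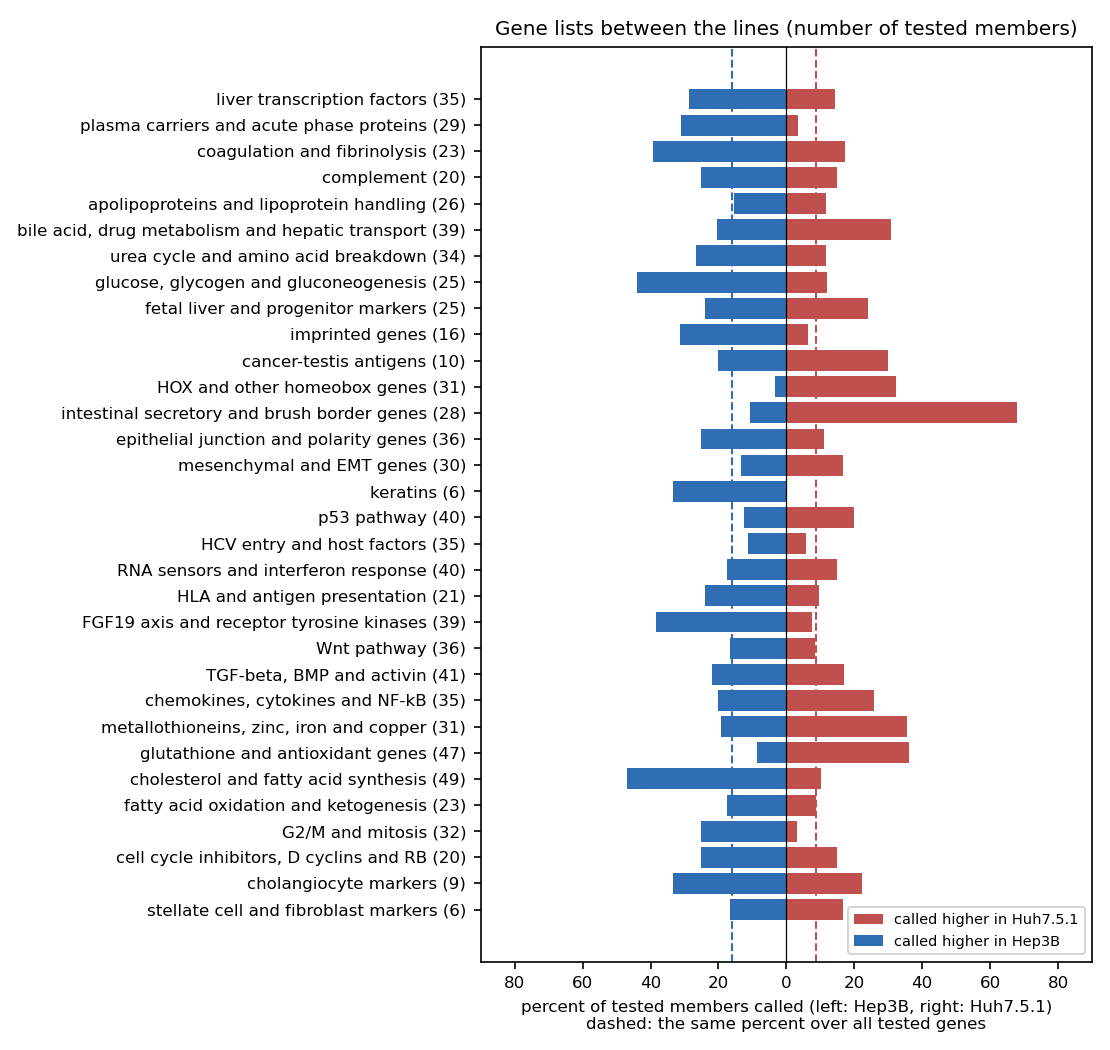
Percent of the tested members of each gene list called higher in Hep3B (blue, left) and in Huh7.5.1 (red, right), with the number of tested members in brackets; lists with under 5 tested members are left out. Dashed lines mark 8.81% and 15.9%, the same percents over all tested genes, and the intestinal list, with 19 of 28 members higher in Huh7.5.1, reaches furthest to the right. Of these 19, 12 were below the floor in Hep3B and are among the 28 only through Huh7.5.1.

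Of 28 tested genes of intestinal secretion and of the brush border, 19 were called higher in Huh7.5.1 and 3 higher in Hep3B, with a median difference of 1.97, against 8.81% and 15.9% of all tested genes and a median of -0.20 after raising means to the floor. The median was 2.37 on the values as deposited. Of the members with a probe set, 25 were below the floor in both lines, so these counts are over the 28 that reached it in at least 1 line. MUC2, KRT20, FABP2, LCT, ALPI and OLFM4 were among the 25. Of the 19 higher in Huh7.5.1, 12 were below the floor in Hep3B and passed the filter only through Huh7.5.1. These 12 give no support to a direction of the list. They are also part of both medians, which therefore give none either. CDX2, the homeobox factor that sets intestinal identity, lay at -0.15 and -0.13 in Hep3B and at 3.64 and 3.28 in Huh7.5.1, at least 11-fold higher. CDX1, its close relative, was below the floor in both lines, between -0.59 and 0.08.

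The trefoil peptides, which protect mucosal surfaces, moved together. TFF1 lay at -1.84 and -1.91 in Hep3B and at 3.43 and 4.21 in Huh7.5.1, at least 14.1-fold higher, and TFF2 and TFF3 were called too, with differences of 3.12 and 2.38. Brush border enzymes and receptors of the list were called higher in Huh7.5.1 too: SI, sucrase-isomaltase, differed by 2.23, GUCY2C, the receptor of guanylin, by 2.45, MEP1A, a meprin subunit, by 1.94 and DPP4 by 1.03. DPP4 fell short of 2-fold without Hep3B replicate 2 (0.93) or Huh7.5.1 replicate 2 (0.95). HEPH, the iron oxidase of enterocytes, lay at -2.54 and -2.51 in Hep3B and at 2.37 and 2.80 in Huh7.5.1. LYZ, the gene of lysozyme, is made by Paneth cells and by macrophages and was 13-fold higher in Huh7.5.1, at 5.59 and 5.60 against 2.24 and 1.54, while PTPRC and CD163, which mark leukocytes and macrophages, were below the floor in both lines.

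The 3 intestinal genes higher in Hep3B were TM4SF4, GALNT3 and VIL1. TM4SF4, a tetraspan membrane protein also made in liver, lay at 6.96 and 7.10 in Hep3B and at 2.50 and 2.85 in Huh7.5.1, 20.4-fold apart. VIL1, the actin bundler of microvilli, differed by -1.27 ± 0.18 (SE), and another of its 3 probe sets above the floor ran the opposite way. MUC1 and MUC5B, mucin genes, differed by -0.68 and -0.06 and were not called.

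Of 31 tested HOX and other homeobox genes 10 were called higher in Huh7.5.1, 1, MEIS2, higher in Hep3B and 20 neither, and 19 more were below the floor in both lines. All 10 were below the floor in Hep3B and passed the filter only through Huh7.5.1, so their count gives no support to a direction of the list. HOX genes give cells their position along the body axis and are laid out in clusters. The HOX genes among the 10 were HOXC6, HOXB9, HOXC8, HOXB7, HOXB6, HOXD1, HOXC10 and HOXD4. HOXC6 lay at -1.55 and -1.53 in Hep3B and at 4.26 and 4.19 in Huh7.5.1, at least 18.7-fold higher. HOXB9 lay at -0.86 and -0.80 against 4.04 and 4.39, at least 18.6-fold higher. Both were below the floor in Hep3B and above it in Huh7.5.1. HOXC10 and HOXD4 lost their calls without Huh7.5.1 replicate 1, at fitted differences of 3.14 and 3.13 before means are raised to the floor. HOXB13 and HOXA2 were not called, with differences of -0.30 and -0.20. HOXA2 was below the floor in Huh7.5.1, and its fitted difference was -0.73. PDX1, a pancreatic and duodenal homeobox factor, differed by 2.02 and was called higher in Huh7.5.1.

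Antioxidant and metal-binding genes formed the next groups toward Huh7.5.1, and the promoters of 5 genes from these and the sterol group are printed because the groups have well known response sequences. Cells meet oxidants through the factor NRF2, the product of NFE2L2, which binds antioxidant response elements, and meet excess zinc through MTF1, which binds metal response elements. The sterol sensor SREBP2, the product of SREBF2, binds sterol response elements. Each sequence runs from 250 bases before to 50 after the gene's start, 5′ to 3′ on the gene's strand, and comes from RefSeq on GRCh38.p14. Capitals mark matches to TGACNNNGC (the antioxidant core) in the first pair, to TGCNCNC (the metal core) in the metallothioneins and to a sterol response element in SREBF2, on either strand.
GSTP1 (chr11:67583562-67583861, plus strand): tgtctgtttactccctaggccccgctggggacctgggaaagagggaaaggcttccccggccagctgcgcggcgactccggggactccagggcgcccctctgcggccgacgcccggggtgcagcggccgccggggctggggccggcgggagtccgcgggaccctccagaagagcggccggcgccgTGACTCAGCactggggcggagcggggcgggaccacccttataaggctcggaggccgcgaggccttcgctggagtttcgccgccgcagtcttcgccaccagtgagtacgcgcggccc
GCLM (chr1:93909381-93909680, minus strand): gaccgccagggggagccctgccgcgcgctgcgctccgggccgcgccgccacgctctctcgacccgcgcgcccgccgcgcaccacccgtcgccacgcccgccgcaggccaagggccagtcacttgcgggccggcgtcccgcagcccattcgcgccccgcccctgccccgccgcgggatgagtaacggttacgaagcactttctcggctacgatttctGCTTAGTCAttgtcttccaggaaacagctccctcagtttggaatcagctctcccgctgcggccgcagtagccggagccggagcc
MT2A (chr16:56608334-56608633, plus strand): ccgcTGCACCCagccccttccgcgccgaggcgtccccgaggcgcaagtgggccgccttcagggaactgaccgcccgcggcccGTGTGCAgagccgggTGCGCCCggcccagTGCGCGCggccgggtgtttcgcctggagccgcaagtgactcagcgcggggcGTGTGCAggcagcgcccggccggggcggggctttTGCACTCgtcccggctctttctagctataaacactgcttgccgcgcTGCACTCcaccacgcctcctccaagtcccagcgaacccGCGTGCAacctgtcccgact
MT1X (chr16:56682220-56682519, plus strand): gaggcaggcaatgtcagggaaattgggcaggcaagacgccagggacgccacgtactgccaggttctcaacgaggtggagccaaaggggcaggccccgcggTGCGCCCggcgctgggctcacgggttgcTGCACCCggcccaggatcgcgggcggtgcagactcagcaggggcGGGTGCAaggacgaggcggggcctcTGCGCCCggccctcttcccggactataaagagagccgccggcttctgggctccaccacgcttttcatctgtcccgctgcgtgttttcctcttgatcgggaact
SREBF2 (chr22:41832855-41833154, plus strand): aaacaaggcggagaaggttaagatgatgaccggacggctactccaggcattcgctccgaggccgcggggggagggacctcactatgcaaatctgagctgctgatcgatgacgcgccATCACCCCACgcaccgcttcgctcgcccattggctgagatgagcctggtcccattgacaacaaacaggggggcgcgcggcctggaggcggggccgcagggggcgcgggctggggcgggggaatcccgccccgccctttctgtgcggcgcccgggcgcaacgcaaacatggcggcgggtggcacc

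In the glutathione and antioxidant list, 17 of 47 tested members were called higher in Huh7.5.1 and 4 higher in Hep3B. All tested genes gave 8.81% and 15.9%, and the median difference of the list was 0.35. Of the 17, 5 were below the floor in Hep3B, passed the filter only through Huh7.5.1 and are part of that median. Genes of glutathione supply were in the list: GCLM, the modifier subunit of the enzyme that limits glutathione synthesis, differed by 2.91, and SLC7A11, which brings in cystine, by 2.89, while the catalytic subunit GCLC differed by -0.13 and was not called. NQO1, a quinone reductase and a standard NRF2 target, lay at 1.00 and 0.78 in Hep3B and at 4.02 and 4.39 in Huh7.5.1, a difference of 3.32 ± 0.18 (SE) or 9.96-fold. GPX2, the glutathione peroxidase of gut epithelium, lay at -0.46 and -0.41 against 4.09 and 3.94, at least 16.2-fold higher. HMOX1, which breaks down heme, differed by 3.00, TXNRD1 by 1.17, and NFE2L2 itself by 1.01, all called. NOX1, an oxidase that makes superoxide, was called too, with a difference of 2.95. NFE2L2 fell short of 2-fold without Hep3B replicate 3 (0.94) or Huh7.5.1 replicate 2 (0.96).

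The 4 list members higher in Hep3B were CAT, GPX7, GSTM3 and GSTT1. CAT, catalase, lay at 5.32 and 5.29 in Hep3B and at 2.83 and 2.94 in Huh7.5.1, a 5.36-fold difference. So the glutathione transferases did not run one way: GSTP1 was far higher in Huh7.5.1, GSTM3 and GSTT1 were higher in Hep3B by 1.86 and 1.83, and GSTA2, GSTO1 and GSTK1, at 0.96, 0.55 and 0.55 toward Huh7.5.1, were not called. GSTA2 lay below the floor in Hep3B, at -2.13 and -1.99 against 0.74 and 1.18, so its 0.96 is a lower bound.

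The letters TGACNNNGC stood in the promoters of 6 of 14 antioxidant genes called higher in Huh7.5.1 that had a promoter in the table, GSTP1, GPX2, GCLM, TXNRD1, ME1 and PGD. They stood in 8 of 37 tested members of the list with a promoter, in 15.2% of the promoters of tested genes and in 13.6% of all 27305 promoters. In GSTP1 the match began at position -66 from the start, as printed above. It stood in 14.7% of the promoters of genes called higher in Huh7.5.1 and in 15.2% of those called higher in Hep3B, so the called genes as a whole lie near the background. PGD lost its call without Huh7.5.1 replicate 1 (0.84) or replicate 2 (0.95).

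Metallothioneins, small cysteine-rich proteins that bind zinc and copper, were higher in Huh7.5.1. Among 7 tested metallothionein genes of the MT1 and MT2 groups 6 were called higher there and 0 higher in Hep3B. Their median difference was 2.28. MT2A, the most abundant form in many tissues, lay at 3.10 and 3.47 in Hep3B and at 6.70 and 6.01 in Huh7.5.1, an 8.40-fold difference. MT1X lay at 0.58 and 0.91 against 4.02 and 3.46, and MT1F at -0.15 and 0.65 against 3.90 and 3.13. MT1E, MT1G and MT1M were the other called members, and MT1B was not called. MT3, not among the 7, differed by -0.28 with means raised to the floor and was not called. Metallothionein genes are near-identical copies, so their probe sets may share signal, and 1 of the 2 probe sets of MT2A, above the floor, ran the opposite way. MTF1, the zinc-sensing factor, differed by 1.38, and SLC30A1, the zinc exporter, by 1.02, both called higher in Huh7.5.1. Without Huh7.5.1 replicate 1, MT1M was not called, at a fitted 1.73, and SLC30A1 fell short of 2-fold without Hep3B replicate 3 (0.86) or Huh7.5.1 replicate 2 (0.98).

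The letters TGCNCNC, printed in capitals, occurred 8 times in the MT2A promoter and 4 times in that of MT1X. They are common: 55.2% of all promoters and 63.3% of those of tested genes held at least 1. Matches counted for one motif may overlap those of another.

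Of the 31 tested members of the metallothionein, zinc, iron and copper list 11 were called higher in Huh7.5.1, 6 higher in Hep3B and 14 neither. CP, ceruloplasmin, the copper-carrying ferroxidase of plasma, lay at 3.92 and 3.88 in Hep3B and at -0.76 and -1.37 in Huh7.5.1, at least 15-fold higher in Hep3B. HJV and HFE, which sense iron for hepcidin control, SLC40A1, the iron exporter ferroportin, TF, transferrin, and ACO1 were the others higher in Hep3B. HAMP, hepcidin, differed by 0.24 and was not called. HEPH, which does in enterocytes what CP does in plasma, was called higher in Huh7.5.1.

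**Figure D4:**
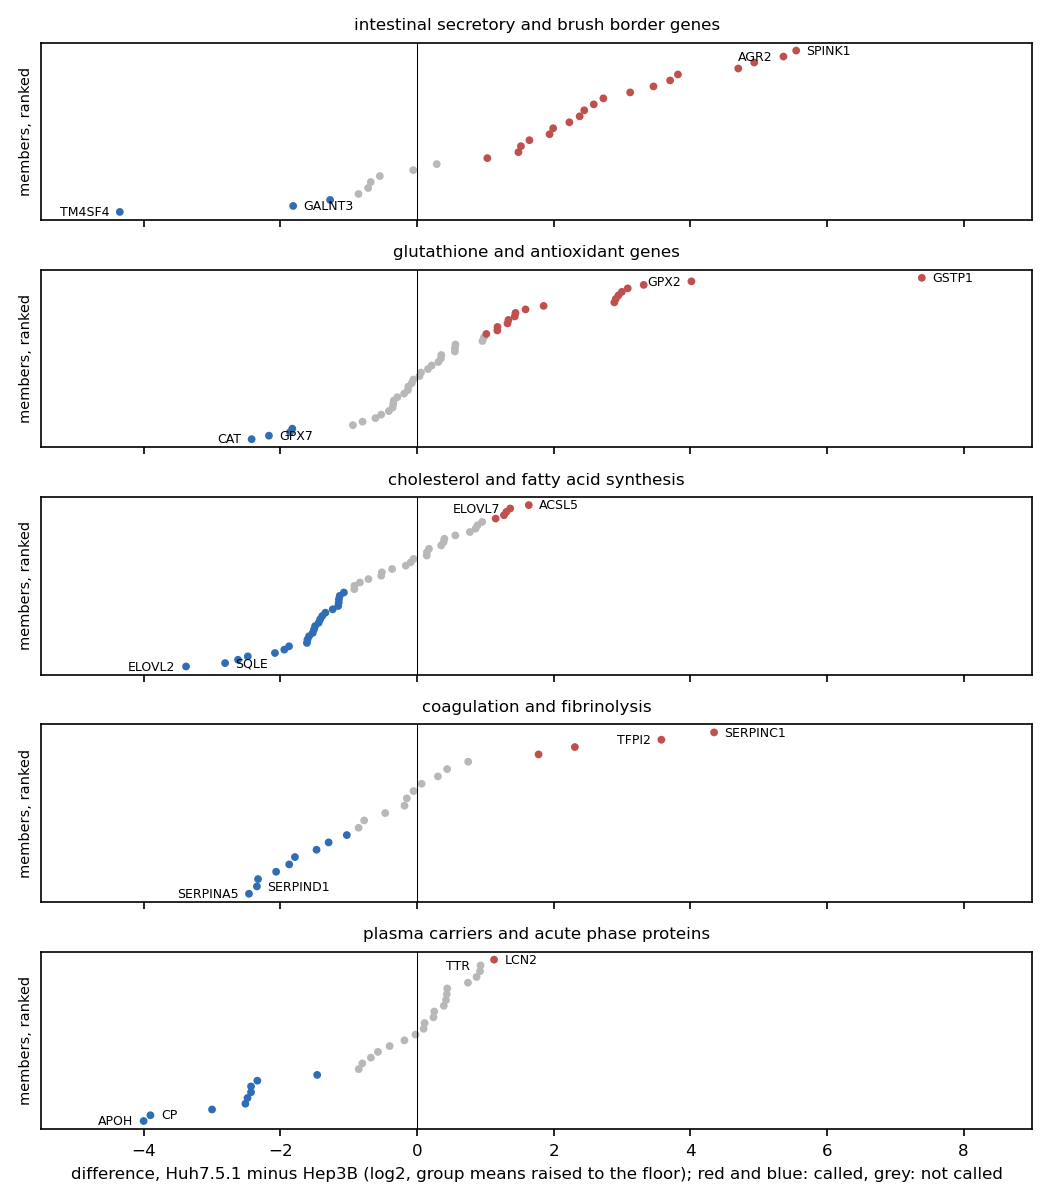
Difference between lines, Huh7.5.1 minus Hep3B in log2 units with group means raised to the floor, for each tested member of 5 lists, ranked from bottom to top within a list. Red and blue points are called and grey points are not. Intestinal genes spread to 5.55 at SPINK1, GSTP1 stands apart at 7.39, and cholesterol and fatty acid genes reach down to -3.38 at ELOVL2.

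Of 49 tested genes of cholesterol and fatty acid synthesis 23 were called higher in Hep3B, 5 higher in Huh7.5.1 and 21 neither, with a median difference of -0.92. On the values as deposited the counts were 15 and 9, and the median was -0.50. Among 16 tested genes of the cholesterol pathway itself 12 were higher in Hep3B and 0 higher in Huh7.5.1, with a median of -1.50. SQLE, squalene epoxidase, lay at 5.58 and 5.54 in Hep3B and at 2.68 and 2.82 in Huh7.5.1, a difference of -2.81 ± 0.12 (SE) with a limma adjusted p of 6.99e-08. INSIG1, which holds the sterol sensor in the endoplasmic reticulum, lay at 4.53 and 4.18 against 1.95 and 1.52, and FDPS, which makes farnesyl diphosphate, at 5.74 and 6.01 against 3.20 and 3.59. HMGCS1, LSS, MVK and NSDHL were called in the same direction, and 1 of the 3 probe sets of LSS, above the floor, ran the opposite way.

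Both sterol and fatty acid regulators were in the group, SREBF2 at -1.44 and SREBF1 at -1.42. FASN, fatty acid synthase, ACACA, ACLY and SCD were called higher in Hep3B with differences between -1.39 and -1.13. ELOVL2, which lengthens polyunsaturated fatty acids, had uneven Huh7.5.1 arrays at 0.48 and 2.05, both below 4.47 and 4.82 in Hep3B. The members higher in Huh7.5.1 were ACSL5, ELOVL7, DGAT2, GPAM and FADS2, of which DGAT2 and GPAM build triglycerides. Of these, ELOVL7 fell short of 2-fold without Huh7.5.1 replicate 1 (0.85) or replicate 2 (0.42), FADS2 without Huh7.5.1 replicate 2 (0.98) and GPAM without Hep3B replicate 3 (0.79), and ACLY did so without Huh7.5.1 replicate 1 (-0.88). The sterol response element stood in the SREBF2 promoter at position -134 from the start, in 0.154% of all promoters and in 0 of 15 promoters of the cholesterol genes in the table.

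Secreted products of hepatocytes did not shift as a block. Among 29 tested plasma carriers and acute phase genes 9 were called higher in Hep3B and 1, LCN2, higher in Huh7.5.1, and the median difference was -0.19, turning to 0.23 on the values as deposited. APOH, the phospholipid-binding apolipoprotein H, lay at 7.33 and 7.41 in Hep3B and at 3.45 and 3.28 in Huh7.5.1, a 16-fold difference. FGL1, a fibrinogen-like hepatokine, lay at 6.08 and 5.91 against 2.69 and 3.30, 8.01-fold apart. AZGP1, AHSG, SERPINA7, SERPINA6 and LRG1 followed, with differences between -2.51 and -2.34. Beside these, HPX and SERPINA1, of hemopexin and alpha-1 antitrypsin, differed by -0.02 and -0.40, and TTR, transthyretin, by 0.93, and were not called. HP, of haptoglobin, lay at -0.82 and -1.08 in Hep3B and at 0.02 and 0.20 in Huh7.5.1. Its fitted difference was 1.06, but 0.11 with means raised to the floor, and it was not called. Without Huh7.5.1 replicate 1 TTR was called higher in Huh7.5.1 (1.07) and LCN2 was not called, at a fitted 3.00.

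Clotting genes went both ways, with 9 of 23 tested members higher in Hep3B and 4 higher in Huh7.5.1. SERPINC1, antithrombin, which inhibits thrombin, lay at -1.11 and -0.98 in Hep3B and at 4.27 and 4.42 in Huh7.5.1, at least 20.4-fold higher. SERPIND1, heparin cofactor II, another thrombin inhibitor, ran opposite, at 5.31 and 5.40 in Hep3B and at 2.95 and 3.06 in Huh7.5.1, 5.08-fold apart. SERPINA5, the protein C inhibitor, F7, F10, PROZ, KNG1 and F2 were also called higher in Hep3B. The fibrinogen chains, which assemble in equal parts, differed from each other: FGB lay at 4.29 and 4.97 in Hep3B and at 6.94 in both Huh7.5.1 arrays, while FGA and FGG differed by 0.30 and 0.07 and were not called. F3, tissue factor, and TFPI2, a protease inhibitor of the extracellular matrix, were higher in Huh7.5.1. PROZ was not called without Hep3B replicate 2, at a fitted -1.07.

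Complement gave 5 of 20 tested members higher in Hep3B and 3 higher in Huh7.5.1, or 4 and 5 as deposited. C3, the central component, lay at 7.11 and 7.35 in Hep3B and at 5.50 and 5.29 in Huh7.5.1, 3.57-fold apart, and C2 was 8.05-fold higher in Hep3B. Membrane regulators split: CD55, which speeds decay of the convertases, was 9.65-fold higher in Huh7.5.1, and CD59, which blocks the lytic pore, 2.85-fold higher in Hep3B. Promoters of the 58 tested plasma, clotting and complement genes in the table had a median of 6 CG dinucleotides in 300 bases, against 26 for all tested genes and 14 for all promoters. The HNF1 motif in its full letters stood in 1 of 27305 promoters and in 0 of those of tested genes.

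Apolipoprotein genes were near each other in the lines apart from a few members. Of 26 tested genes of apolipoproteins and lipoprotein handling 4 were called higher in Hep3B and 3 higher in Huh7.5.1, shares near those of all tested genes. As deposited the counts were 3 and 4. APOA1, of high density lipoprotein, differed by -0.03 and APOB by -0.50. APOE lay at 7.71 and 7.63 in Hep3B and at 6.67 and 6.76 in Huh7.5.1, a difference of -0.96 ± 0.07 (SE) that fell short of 2-fold. ANGPTL8, APOH, CIDEB and APOC3 were the members higher in Hep3B, and MTTP, which loads lipid onto apolipoprotein B, PON1 and PLTP those higher in Huh7.5.1. Without Huh7.5.1 replicate 2 PON1 was not called, at a fitted 3.36, and APOE passed 2-fold at -1.002.

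Among 39 tested genes of bile acids, drug metabolism and transport 12 were called higher in Huh7.5.1 and 8 higher in Hep3B. All tested genes gave 8.81% and 15.9%, and 25 more members were below the floor in both lines. Of the 12, 7 were below the floor in Hep3B and passed the filter only through Huh7.5.1, so these 7 give no support to a direction of the list. AKR1D1, the reductase that shapes the bile acid ring system, lay at -0.75 and -0.39 in Hep3B and at 3.18 and 3.50 in Huh7.5.1, at least 10.1-fold higher. Export pumps were in the group: ABCB1 lay at 1.38 and 0.83 in Hep3B and at 3.94 and 4.09 in Huh7.5.1, a 7.51-fold difference, and ABCG2 and ABCC2 were called with 2.01 and 1.44. CYP1A1, a target of the aryl hydrocarbon receptor, differed by 2.10 ± 0.31 (SE). The glucuronosyltransferases UGT2B7 and UGT2B4 went the other way, at least 8.93-fold and 5.31-fold higher in Hep3B, with the limit that this family has near-identical copies.

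Amino acid breakdown gave 9 of 34 tested members higher in Hep3B and 4 higher in Huh7.5.1, or 4 and 6 as deposited. CPS1, the entry enzyme of the urea cycle, lay at 2.30 and 1.98 in Hep3B and at -1.38 and -1.06 in Huh7.5.1, while ASS1, ASL and ARG1 differed by -0.74, 0.11 and -0.26 and were not called. CTH, which makes cysteine from cystathionine, lay at 1.14 and 0.94 against 4.25 and 4.20, 9.1-fold higher in Huh7.5.1, and BHMT2, which makes methionine, was 6.48-fold higher there. The histidine pathway was led by HAL, and AMDHD1 of the same pathway was called higher in Hep3B as well, but not without Hep3B replicate 2 (-0.96). CPS1 was not called with the mean of all its probe sets.

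In glucose and glycogen metabolism 11 of 25 tested members were called higher in Hep3B and 3 higher in Huh7.5.1, with a median of -0.57, or 7 and 5 on the values as deposited. Aldolase genes ALDOC and ALDOA differed by -2.69 and -1.60, and ENO3, GBE1, HK2, PDK1 and LDHA were in the same direction. ALDOA, of the main muscle and red cell aldolase, lay at 6.85 and 7.15 in Hep3B and at 5.56 and 5.24 in Huh7.5.1. ALDOC was not called without probe sets that may match several transcripts (-0.76). The glycogen phosphorylases PYGL and PYGB and the mitochondrial PCK2 were higher in Huh7.5.1, PCK2 not without Hep3B replicate 3 (0.97). Fatty acid oxidation stayed near the background, with 4 of 23 members higher in Hep3B and 2 higher in Huh7.5.1. As deposited the counts were 0 and 4.

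Liver-enriched transcription factors were called higher in Hep3B for 10 of 35 tested members and higher in Huh7.5.1 for 5. CEBPA, which drives hepatocyte maturation, lay at 6.85 and 6.86 in Hep3B and at 5.22 and 5.31 in Huh7.5.1, a difference of -1.59 ± 0.11 (SE). FOXA1 lay at 5.49 and 5.47 against 3.74 and 4.06, and CUX2 was at least 6.23-fold higher in Hep3B. Nuclear receptor genes NR1I3 and NR1H3 and the sugar-sensing MLXIPL were in the same direction. The acute phase members CEBPB and CEBPD ran opposite to CEBPA: CEBPD lay at 3.08 and 3.36 in Hep3B and at 5.50 and 5.04 in Huh7.5.1, 4.13-fold higher, and CEBPB was 2.39-fold higher. GATA6, PROX1 and ZBTB20 were the others higher in Huh7.5.1, and PPARA, HNF4G and GATA4 were not called. On the values as deposited the counts were 4 and 8, and the median difference was -0.27, against -0.69 after centring.

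Fetal and progenitor genes divided by member, 6 of 25 higher in each line, or 8 in Huh7.5.1 and 3 in Hep3B as deposited. AFP, alpha-fetoprotein, lay at 4.89 and 5.00 in Hep3B and at 7.79 and 7.74 in Huh7.5.1, a difference of 2.82 ± 0.14 (SE) or 7.05-fold. GPC3, another oncofetal liver marker, lay at 6.97 and 6.92 against 5.77 and 6.08, 2.03-fold higher in Hep3B and close to the 2-fold limit. It fell short without Hep3B replicate 2 (-0.998) or Huh7.5.1 replicate 1 (-0.87) and on the values as deposited (-0.61). EPCAM, KRT19, DLK1, IGF2BP2 and IGF2BP3 were higher in Hep3B, and S100P, BEX1, CD9, SPP1 and LIN28B higher in Huh7.5.1. CD9, a tetraspanin, lay at -2.998 and -2.97 in Hep3B and at 3.84 and 3.77 in Huh7.5.1. LGR5, PROM1 and SALL4 were not called.

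Imprinted genes were higher in Hep3B for 5 of 16 tested members, DLK1, CDKN1C, PEG3, MEST and NAP1L5, and higher in Huh7.5.1 for ZDBF2. CDKN1C, the cell cycle inhibitor p57, lay at 5.57 and 6.02 in Hep3B and at 2.49 and 2.18 in Huh7.5.1, an 11-fold difference. PEG3 lay at 2.96 and 2.38 against -3.13 and -3.08. NAP1L5 was not called without Hep3B replicate 2, at a fitted -3.63. Of 42 cancer-testis genes with a probe set 32 were below the floor in both lines, and of the 10 tested MAGEB2, CT83 and BRDT were higher in Huh7.5.1 and ZNF165 and IGF2BP3 higher in Hep3B.

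Epithelial genes were called higher in Hep3B for 9 of 36 tested members and higher in Huh7.5.1 for 4. The counts were 6 and 7 on the values as deposited. ESRP1 lay at 4.41 and 4.72 in Hep3B and at -0.89 and -0.17 in Huh7.5.1, and its relative ESRP2 differed by -1.29. ST14, matriptase, GJB1, the connexin of hepatocytes, and LLGL2, a polarity gene, were also higher in Hep3B. CDH1, E-cadherin, lay at 4.93 and 5.33 against 4.41 and 4.58 and was not called, with 1 of its 2 probe sets, above the floor, running the opposite way, and CLDN7 was at least 4.95-fold higher in Huh7.5.1. In the mesenchymal list the counts were 5 higher in Huh7.5.1 and 4 higher in Hep3B of 30, or 10 and 3 as deposited. ZEB1, a repressor of epithelial genes, lay at 0.30 and -0.83 in Hep3B and at 2.43 and 2.62 in Huh7.5.1, at least 5.75-fold higher, while VIM, vimentin, at 6.46 and 6.55 against 6.83 and 6.73, was high in both lines. MSN, moesin, lay at 3.45 and 3.63 in Hep3B and at -1.91 and -1.87 in Huh7.5.1, at least 11.6-fold higher in Hep3B. KRT8 and KRT18, the keratin pair of hepatocytes, differed by 0.45 and 0.41 and were not called, and KRT23 was 5.75-fold higher in Hep3B.

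Growth factor receptors and their ligands were higher in Hep3B for 15 of 39 tested members and higher in Huh7.5.1 for 3. All tested genes gave 15.9% and 8.81%. The median of the list was -0.48, and the counts were 11 and 6 on the values as deposited. Of the 15, 6 were below the floor in Huh7.5.1, and of the 3, 2 were below it in Hep3B. These passed the filter only through the line where they were higher, and they are part of the median. FGFR2 lay at 4.41 and 4.31 in Hep3B and at -2.24 and -2.31 in Huh7.5.1, and it was not called with the mean of all its probe sets. FGF19, the gut hormone that represses bile acid synthesis through FGFR4 and KLB, lay at -0.88 and -0.94 in Hep3B and at 1.82 and 2.32 in Huh7.5.1, at least 4.2-fold higher. Its coreceptor KLB ran opposite, 2.63-fold higher in Hep3B, and FGFR4 differed by -0.96 and was called only without Hep3B replicate 2 (-1.05) or Huh7.5.1 replicate 2 (-1.12). Of the 7 probe sets of FGFR4, 2 above the floor ran the opposite way. IRS2, which relays insulin signals, was at least 11.6-fold higher in Hep3B, and IRS1 differed by 0.50. EGFR was called higher in Huh7.5.1 at 1.22 ± 0.18 (SE), and 3 of its 8 probe sets ran the opposite way. Of these, 2 lay above the floor. Leaving out Huh7.5.1 replicate 1 or 2 changed the probe set that stood for EGFR and gave -0.25 or -0.12.

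Wnt genes were near the background, with 6 of 36 tested members higher in Hep3B and 3 higher in Huh7.5.1. As deposited the counts were 5 and 6. DKK1, a secreted inhibitor of Wnt receptors, lay at 7.68 and 7.77 in Hep3B and at 4.13 and 4.62 in Huh7.5.1, 10.2-fold apart. AXIN2, a common readout of the pathway, was below the floor on all 4 arrays. CCND1, cyclin D1, lay at 2.57 and 2.68 against 4.71 and 4.66, 4.17-fold higher in Huh7.5.1. TGF-beta, BMP and activin genes gave 9 of 41 higher in Hep3B and 7 higher in Huh7.5.1, or 6 and 9 as deposited. INHBB, an activin subunit, was at least 15.4-fold higher in Hep3B, whereas BMP2 was 7.08-fold, FSTL1 20.3-fold and TGFBR3, the coreceptor betaglycan, at least 10.6-fold higher in Huh7.5.1.

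Hepatitis C virus entry and host factors were similar in number to the background or below it, 2 of 35 higher in Huh7.5.1 and 4 higher in Hep3B. As deposited the counts were 5 and 4. Of the 4 entry receptors, CD81 lay at 5.24 and 5.11 in Hep3B and at 3.76 and 3.56 in Huh7.5.1 and was called, and CLDN1, at 6.76 and 6.97 against 5.70 and 6.11, fell short of 2-fold. OCLN and SCARB1 differed by -0.21 ± 0.16 and 0.43 ± 0.13 (SE). Host factors NPC1L1, CIDEB and PLIN3 were higher in Hep3B. Leaving out arrays moved some of these: CLDN1 passed 2-fold without Hep3B replicate 2 (-1.06) or Huh7.5.1 replicate 2 (-1.16), and NPC1L1 lost its call without Hep3B replicate 2 (-0.91) or 3 (-0.50).

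RNA sensor and interferon genes gave 7 of 40 higher in Hep3B and 6 higher in Huh7.5.1, or 4 and 7 as deposited. IFITM3, a membrane protein that blocks virus entry, lay at 5.57 and 5.89 in Hep3B and at 1.90 and 1.55 in Huh7.5.1, a 16-fold difference, and IFITM2, a close copy, differed 10.5-fold the same way. MX2, an interferon-induced GTPase, lay at -2.44 in both Hep3B arrays and at 3.65 and 3.59 in Huh7.5.1, at least 12.3-fold higher. So interferon-inducible members stood at opposite ends. RIGI, the cytosolic RNA sensor, differed by -0.41 with means raised to the floor and was not called. Its 3 probe sets differed by -1.12 to -0.78 without raising. TLR3, the endosomal sensor, was below the floor on all 4 arrays at -3.57 to -3.23, and TICAM1, its adaptor, was 5.42-fold higher in Hep3B. HLA-B and HLA-C were 4.33-fold and 2.82-fold higher in Hep3B, with near-identical family members, while B2M differed by -0.39. TAP1 differed by -0.01 with means raised to the floor, and its 2 probe sets by -0.65 and 0.13 without raising.

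Chemokine, cytokine and NF-kB genes gave 9 of 35 higher in Huh7.5.1 and 7 higher in Hep3B. CXCL5, a neutrophil-attracting chemokine, lay at 3.57 and 3.32 in Hep3B and at 5.62 and 5.59 in Huh7.5.1. CXCL3 was 6.17-fold higher in Huh7.5.1, and CXCL2 was called there with 2.01. CXCL12, the ligand of CXCR4, lay at 3.28 and 3.10 in Hep3B and at -0.74 and -0.75 in Huh7.5.1, at least 9.13-fold higher in Hep3B. CXCL8 and CXCL1 differed by 0.93 and 0.52 and were not called. However, CXCL8 stayed uncalled in only 8 of 15 alternative settings. Its difference reached 1.35 over the scalings, and it was called higher in Huh7.5.1 without Hep3B replicate 2 (1.66) or 3 (2.28).

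Among p53 pathway genes 8 of 40 were higher in Huh7.5.1 and 5 higher in Hep3B. PMAIP1, the death effector NOXA, lay at -2.44 and -2.02 in Hep3B and at 4.39 and 4.17 in Huh7.5.1, at least 19.4-fold higher. CDKN1A, the cell cycle inhibitor p21, lay at 0.13 and 0.54 against 2.77 and 3.07, 6.01-fold higher in Huh7.5.1. PLK2, SESN2, GADD45A and GDF15 were in the same direction, whereas MDM2, BAX and BBC3 differed by 0.59, 0.63 and 0.08 and were not called, and DDB2, TP53INP1 and SUSD6 were higher in Hep3B. CDKN1A fell short of 2-fold without probe sets that may match several transcripts (0.92), and DDB2 without Hep3B replicate 2 (-0.997) or Huh7.5.1 replicate 1 (-0.95).

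Among cell cycle inhibitors and D cyclins, CDKN2B was at least 9.29-fold higher in Huh7.5.1, and its neighbour CDKN2A lay at 6.66 and 6.56 in Hep3B and at 4.94 and 5.02 in Huh7.5.1, with 2 of its 3 probe sets, above the floor, running the opposite way. Genes of G2/M and mitosis were higher in Hep3B for 8 of 32 members, among them CCNB1, CCNA2 and CENPA, and higher in Huh7.5.1 for HMMR. The median was -0.66, and on the values as deposited 4 were higher in each line. MKI67 and TOP2A, which mark dividing cells, differed by -0.02 and 0.14 and were not called. Of the 6 probe sets of MKI67, 4 above the floor ran the opposite way, and of the 3 of TOP2A 2 did; those of MKI67 ranged up to a difference of 2.01.

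Calls were also read along the chromosomes, where neighbours were ordered by RefSeq on GRCh38.p14 and no test was run. Chromosome 13 stood out. From RAP2A to TFDP1, near its end, 35 of 40 tested genes were called higher in Hep3B and 1 higher in Huh7.5.1, with a median difference of -1.40, and 39 of the 40 differences were below 0. On the values as deposited the median was -0.98 and 20 were called higher in Hep3B. The stretch was chosen after the values were seen. It holds clotting genes named above, F7, F10 and PROZ, which lie side by side in a run of 14 neighbouring genes from ARHGEF7 to TFDP1 that were all called higher in Hep3B. RAP2A lost its call without Hep3B replicate 3 (-0.94) or Huh7.5.1 replicate 1 (-0.93), and ARHGEF7 without Hep3B replicate 2 (-0.91) or Huh7.5.1 replicate 1 (-0.94). In the part of the chromosome before RAP2A, 32 of 135 tested genes were higher in Huh7.5.1 and 8 higher in Hep3B, with a median of 0.25.

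**Figure D5:**
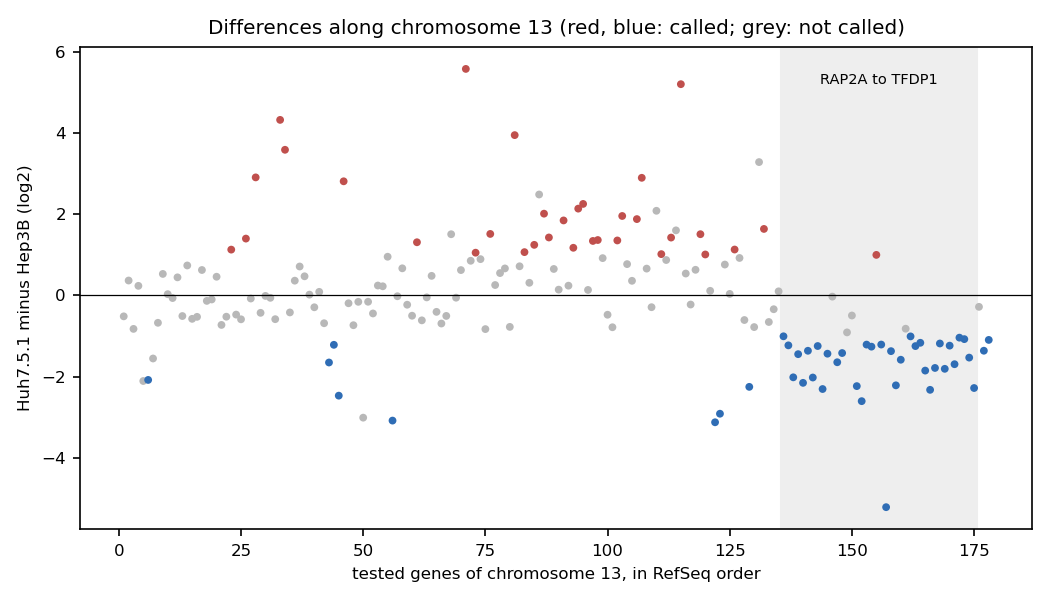
Difference between lines, Huh7.5.1 minus Hep3B in log2 units, for tested genes of chromosome 13 in RefSeq order; red points are called higher in Huh7.5.1, blue points higher in Hep3B and grey points neither. In the shaded stretch from RAP2A to TFDP1 35 of 40 points are blue.

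Of 271 windows of 40 tested genes, 9 had a median of at least 0.5 toward Huh7.5.1 and 67 toward Hep3B. The median of all tested genes was -0.23 after centring and 0.22 as deposited, so the balance of these 2 counts depends on the scaling. Windows were not counted on the values as deposited. Toward Huh7.5.1, the window from LCP1 to LMO7 on chromosome 13 had a median of 1.12, with 20 genes higher in Huh7.5.1 and 0 higher in Hep3B, and the window from ROCK1P1 to SEH1L on chromosome 18 a median of 1.08, with 23 and 3. Toward Hep3B, the window from MYCBP2 to ING1 on chromosome 13 had a median of -1.24, with 3 higher in Huh7.5.1 and 24 in Hep3B. It overlaps the stretch from RAP2A to TFDP1, so many of its genes were already counted there. The window from ALDOA to ARMC5 on chromosome 16 had a median of -1.11, with 0 and 21. There were 9 runs of at least 6 neighbours called one way. A run of 7 on chromosome 1, from ZNF644 to RPAP2, was higher in Huh7.5.1 and holds TGFBR3 and BRDT, both named above. A run of 7 on chromosome 19, from TNFAIP8L1 to UHRF1, was higher in Hep3B and holds TICAM1 and PLIN3. UHRF1 lost its call without Huh7.5.1 replicate 2 (-0.93). DNA copy number was not measured in these files.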

How the data were processed

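Per the labels, total RNA came from cultured cells and was read on Affymetrix arrays. The values used were the log2 signals of 49395 probe sets as deposited by the authors, and the submitters' processing notes name MAS5. That they are on a log2 scale follows from their range. How arrays were scaled, not given in the sources used here, stays unknown. The 2 columns labelled Hep3B with CU27 could be computed exactly from those of Hep3B with DMSO (tolerance 1e-06) and were left out. All values of the other 6 columns were in single-precision form, against 54.1% and 58.0% in those 2.

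Each array was centred on its median. Of the probe sets 102 were controls, 44988 had 1 gene symbol, 1832 several and 2473 none, and 44961 matched the RefSeq gene table by Entrez identifier. The probe set with the highest mean over the 6 arrays fitted stood for a gene, as 11734 of 18132 genes had more than 1. Genes whose mean reached the floor, the 50th percentile of its array, in at least 1 line were tested. The lines were set against each other over 6 arrays with limma 3.58.1 in R 4.3.3. The steps were lmFit, contrast and eBayes with an intensity trend, with 3 residual degrees of freedom. The Huh7.5.1 CU27 arrays entered for the spread and for the choice of probe set, but not for the group means compared. Two-sided p-values were adjusted (Benjamini-Hochberg) over the 11242 genes tested. No exact permutation test was run, since with 2 arrays per line the smallest p is 0.333. The procedure was tested on simulated data. Where a line's mean was below the floor, the fold is at least the ratio to the floor, for the probe set used.

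The members and the 34 gene lists were chosen with earlier results of these data known. Genes were named by rule: the 15 largest called differences each way among genes whose lines do not overlap, up to 4 called members per list and direction, and fixed genes of interest. A further 113 genes, the pathway subsets of metallothioneins, HOX and cholesterol genes, and the motifs other than HNF1 were chosen after their values were seen. Of the tested genes 9313 had a RefSeq promoter in the table. Of 2064 called genes with several probe sets, 207 had another one above the floor with the opposite sign. Alternatives changed the scaling, floor, probe set choice, arrays, trend and fold limit. The precision is limited by the number of arrays.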

Additional observations from a re-analysis of the deposited data

How the results depend on the processing

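The counts of 990 genes higher in Huh7.5.1 and 1790 higher in Hep3B moved most with the scaling and the fold limit. They were 1757 and 875 on the values as deposited, 2581 and 4658 with the adjusted p alone, and 247 and 306 at 4-fold. The mean of all probe sets of a gene lowered the second count to 1131. Without 1 array at a time the counts ranged from 912 to 1129 and from 1752 to 1875. EGFR ranged from -0.25 to 1.30 when 1 array was left out. All other alternatives stayed within 1.5 times of both counts. Of 342 named genes 293 were called, and 194 of these were called in every one of the 15 alternatives that tested them. EGFR reversed to -0.18 with all 8 columns, -0.25 without Huh7.5.1 replicate 1 and -0.12 without replicate 2, where another probe set stood for it. TPM1 reversed to 0.54 without probe sets that may match several transcripts. The median of the endothelial list could not be given under a higher floor or the mean of all probe sets, since no member reached the floor. No paired analysis was possible because the groups compared share only replicate number 2.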
